A study of Mus musculus with 20 samples.

Results

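The 33 genes described here handle glucose, lactate and pyruvate: the glucose transporters Slc2a1 and Slc2a4, the hexokinases and the other enzymes of glycolysis, the lactate dehydrogenases, the monocarboxylate carriers, the mitochondrial pyruvate carrier, pyruvate dehydrogenase with its kinases, and enzymes that regulate glycolysis or store glycogen. They were picked by gene symbol from a deposited table of 26440 genes and read across all groups of the study. All 33 were in the table and all 33 passed the filter on low values, a normalized signal of at least 10 in at least 3 of the 20 libraries, as did 18125 of the 26440 genes.

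The study compared hearts of C57BL/6N mice with a myocardium-specific deletion of Creld1 (genotype MyHC-Creld1 KO, here knockout) with hearts of wild-type littermates. Creld1 encodes an endoplasmic reticulum membrane protein. The groups were P3 (postnatal day 3) ventricles, 3 knockout and 3 wild-type; P3 atria, 3 knockout and 3 wild-type; and whole E13.5 (embryonic) hearts, 4 knockout and 4 wild-type. The 6 pups came from 3 litters and each is labelled as giving both tissues, and the 8 embryos came from another 3 litters. Within a tissue, knockout and wild-type libraries with the same replicate number were littermates prepared on the same day, and they are called a pair below. E13.5 replicates 1 to 3 were prepared in 2016 and all other libraries in 2018. Heart cells outside the myocardium keep the gene. The part of Creld1 that was deleted is not named in the labels.

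Glycolysis splits glucose into pyruvate in the cytosol, where lactate dehydrogenase can turn pyruvate into lactate and back. Pyruvate enters mitochondria through a carrier made of MPC1 and MPC2, and the pyruvate dehydrogenase complex commits it to oxidation, a step that pyruvate dehydrogenase kinases switch off. Several steps have a broadly expressed isoform and a muscle isoform encoded by another gene. The fetal heart is known to rely largely on glucose and lactate, and the heart shifts after birth towards fatty acid oxidation.

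Values are the authors' normalized read signal, on a linear scale common to the libraries. Estimated read totals were 5138352 to 20669362 per library. Creld1 had a signal of 19.9, 59.3 and 51.9 in knockout ventricles, against 62.2, 59.7 and 130 in wild-type ventricles. It was at 23.1, 26.6 and 82.4 in knockout atria, against 105, 21.6 and 146 in wild-type atria. In E13.5 hearts it was at 70.9, 7.48, 38.4 and 4.64 in the knockout group, against 66.0, 92.2, 60.8 and 34.0 in the wild-type group. Creld1 was therefore not lower than in its pair in the library labelled E13.5 knockout replicate 1 or in the library labelled atrial knockout replicate 2, and it was all but equal in the pair of ventricular replicate 2. Directions given for E13.5 include the first of these libraries, and directions given for P3 include both tissues of knockout pup 2. The tissue labels fitted Myl2, the ventricular light chain gene, which was at 43110 to 51810 in the ventricles and at 21.7 to 97.2 in all but 1 of the atria. Wild-type atrial replicate 2 had a Myl2 signal of 9242. Xist, the RNA of the inactive X chromosome, was at 74.9 in the ventricle and 2876 in the atrium of the same wild-type pup, so whether both libraries of wild-type pup 2 come from 1 pup is in doubt.

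The third atrial pair stood apart. Mitochondrial transcripts took 3.55% of the signal in knockout and 10.4% in wild-type atrial replicate 3, against 22.6% to 31.3% in the other atria. The 33 genes took 1.34% and 0.952% of the signal there, in knockout and in wild-type, against 0.298% to 0.393% in the other atria. Set against the mean of the other 2 atrial replicates of its genotype, replicate 3 had a median log2 difference of -0.76 in knockout and -0.71 in wild-type over the lowest of 5 equal GC classes of the genes tested. Over the highest GC class it was 1.41 in knockout and 1.61 in wild-type. The members are GC-rich, with a median transcript GC content of 53.5% against 48.4% over the genes tested, and their median differences were 1.06 in knockout and 0.89 in wild-type. Aldoa, for example, was at 16720 in knockout atrial replicate 3 against 2730 and 2128 in the other knockout atria. Atrial members that the results turn on are therefore given per library, and the atrial counts and calls with and without this pair.

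**Figure D1:**
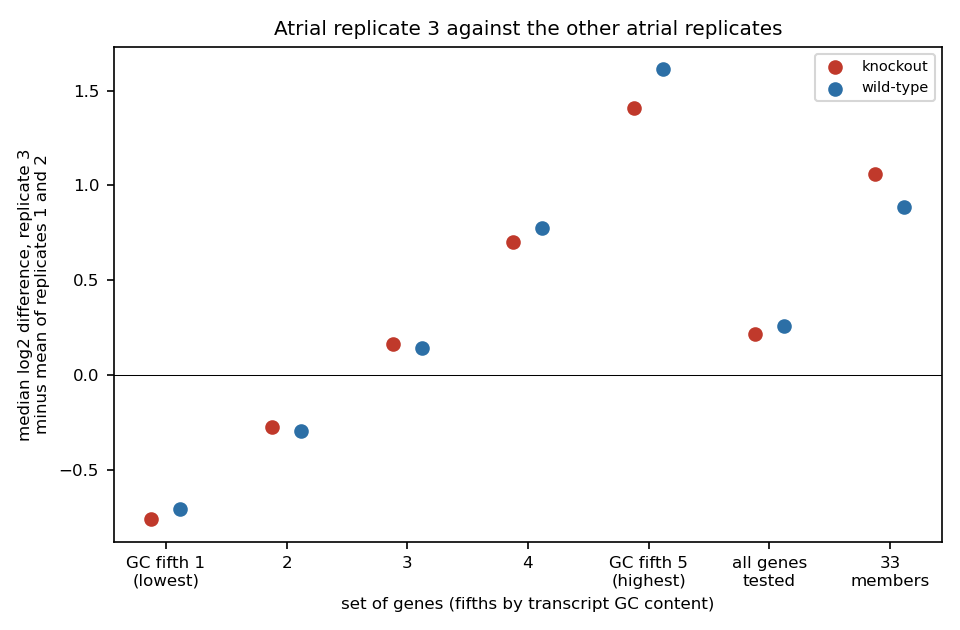
Median difference of log2(signal + 1), a log2 scale, between atrial replicate 3 and the mean of atrial replicates 1 and 2 of the same genotype, for 5 equal classes of genes by transcript GC content, for all 18125 genes tested and for the 33 members. In both genotypes the offset was higher in each higher GC class, at -0.76 (knockout) and -0.71 (wild-type) in the lowest class and at 1.41 (knockout) and 1.61 (wild-type) in the highest, and the members sat at 1.06 (knockout) and 0.89 (wild-type).

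Transcript levels can be compared between genes only per kilobase of transcript, since longer transcripts give more reads. On that scale Ldhb, which encodes the heart-type subunit of lactate dehydrogenase, was the most abundant member in ventricles, with a signal per kb of 5312 ± 345 (SD, n = 3) in knockout and 7166 ± 559 (SD, n = 3) in wild-type. In E13.5 hearts Pgk1, for phosphoglycerate kinase, came first with a signal per kb of 4034 ± 694 (SD, n = 4) in knockout and 3950 ± 506 (SD, n = 4) in wild-type. Gapdh followed at E13.5 with 3336 ± 448 (SD, n = 4) in knockout and 3500 ± 443 (SD, n = 4) in wild-type per kb, a distance from Pgk1 within the spread of the embryos. The components of mitochondrial pyruvate uptake ranked high at P3: Mpc1 had a signal per kb of 3208 ± 894 (SD, n = 3) in knockout and 4131 ± 906 (SD, n = 3) in wild-type ventricles. Pdhb, for the beta subunit of pyruvate dehydrogenase, was at 3463 ± 290 (SD, n = 3) and 4275 ± 422 (SD, n = 3) per kb in the same groups. In wild-type ventricles Pdhb and Mpc1 did not differ beyond their spread. At the low end stood Slc16a3, the lactate exporter MCT4, with a signal per kb of 4.03 ± 4.44 (SD, n = 3) in knockout and 0.970 ± 0.636 (SD, n = 3) in wild-type ventricles. Pfkfb2 and Pfkfb3, for bifunctional kinases that regulate phosphofructokinase, Aldoc and Slc2a4 were also among the lower members.

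Between P3 ventricles and E13.5 hearts, Mpc1, Mpc2, Pdha1, Pdhb, Ldhb and Eno3 were called higher in ventricles of both genotypes, and Slc2a1 and Pgam1 lower. In wild-type alone the test was also passed by Dlat and Slc2a4 (higher) and by Slc16a3 and Pfkp (lower). In knockout hearts 6 of the 33 were higher in ventricles and 2 were lower by limma (adjusted p under 0.05 over 18125 genes), where 1.79% of all genes tested were called higher and 0.954% lower. In wild-type hearts 8 were higher and 4 lower, against 3.35% and 1.74% of all genes tested. Without knockout ventricular replicate 3 the count of members higher in knockout was 3, and without wild-type ventricular replicate 1 the count lower in wild-type was 2. Without the third atrial pair, whose spread enters the shared error, 9 members were higher and 4 lower in knockout ventricles (3.81% and 2.4% of all genes), and 12 higher and 5 lower in wild-type ventricles (5.37% and 3.74%). All 8 calls in knockout hearts were among the 12 in wild-type hearts, and all 12 had the same sign in both genotypes. The median log2 difference over the 33 was -0.02 in knockout and -0.04 in wild-type, beside -0.02 and 0.00 over all genes tested, and the members called lay in both directions. Stage, dissection (chamber or whole heart) and, for replicates 1 to 3, preparation year cannot be told apart here. With the 2018 libraries only, where 1 E13.5 library per genotype is left and is assumed to vary like the others, all 27 stage calls of ventricles and atria kept their sign, and 1 of them, Slc2a1 in wild-type ventricles, was still called. In bulk tissue, fewer cells of a type and less RNA per cell cannot be told apart.

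Of the glucose transporter genes, 1 was lower in ventricles and the other higher. Slc2a1 encodes GLUT1, the insulin-independent transporter. Its signal was 69.9, 54.5 and 150 in knockout ventricles, against 666, 292, 349 and 540 in knockout E13.5 hearts. In wild-type it was 37.4, 47.0 and 33.3 in ventricles, against 547, 391, 676 and 659 at E13.5, so that no ventricular library of either genotype reached any embryonic one. The log2 difference was -2.38 (SE 0.41, limma adjusted p = 0.00173) in knockout and -3.81 (SE 0.41, adjusted p = 5.46e-06) in wild-type. Slc2a4 encodes GLUT4, the insulin-responsive transporter of muscle and fat. It was at 139, 82.3 and 107 in knockout ventricles, against 19.8, 15.95, 26.6 and 44.7 in knockout E13.5 hearts, and at 102, 138 and 194 in wild-type ventricles, against 2.31, 10.5, 39.5 and 24.1 in wild-type E13.5 hearts. The groups did not overlap in either genotype. In knockout the log2 difference of 2.06 (SE 0.68) missed the threshold (adjusted p = 0.12), and in wild-type Slc2a4 was called higher by 3.33 (SE 0.68, adjusted p = 0.00501). That call held in each fit that left out 1 library. It was not among the calls that held under every alternative other than those added after seeing the data.

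In the upper part of glycolysis few members passed the test. The hexokinase genes Hk1 and Hk2 were not called in either genotype. Hk2 was at 403, 500 and 751 in knockout ventricles, against 547, 540, 532 and 456 in knockout E13.5 hearts, ranges that overlapped. In wild-type it was at 823, 778 and 688 in ventricles, against 570, 612, 446 and 209 at E13.5, without overlap. Of the 3 phosphofructokinase genes, Pfkp (platelet type) had a log2 difference of -0.27 (SE 0.23) in knockout, which was not called. In wild-type it was at 774, 972 and 927 in ventricles, against 1440, 1784, 1730 and 1580 at E13.5, and was called lower by -0.88 (SE 0.23, adjusted p = 0.0263). That call was lost in 6 of the fits that each left out 1 library (adjusted p = 0.128 without wild-type ventricular replicate 1). Pfkm (muscle type) had log2 differences of 1.19 (SE 0.62) in knockout and 1.76 (SE 0.62) in wild-type, and Pfkl (liver type) of -0.66 (SE 0.82) and -0.86 (SE 0.82), none of them called. Pfkm was called higher in both genotypes when the third atrial pair was left out (adjusted p = 0.0411 in knockout and 0.00197 in wild-type). Aldoa, Gpi1, Tpi1, Gapdh, Pgk1 and Pkm, which encode other enzymes of glycolysis, had log2 differences between -0.38 and 0.20 in ventricles of both genotypes and were not called.

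Lower in the pathway, with all libraries in the fit, a broadly expressed isoform fell and a muscle isoform of another step rose. Pgam1, for the broadly expressed phosphoglycerate mutase, was at 764, 821 and 1632 in knockout ventricles, against 3645, 2779, 3031 and 3778 in knockout E13.5 hearts. In wild-type it was at 755, 898 and 590 in ventricles, against 3566, 3775, 3875 and 3269 at E13.5. It fell in both genotypes, by a log2 difference of -1.70 (SE 0.26, adjusted p = 0.000532) in knockout and -2.29 (SE 0.26, adjusted p = 1.37e-05) in wild-type. Its muscle counterpart Pgam2 had log2 differences of 0.50 (SE 0.33) and 0.80 (SE 0.33) and was not called. Without the third atrial pair Pgam2 was called higher in wild-type (SE 0.17, limma adjusted p = 0.00515) and still not in knockout. Eno3 encodes muscle enolase and was at 1565, 1662 and 1759 in knockout ventricles, against 591, 398, 653 and 449 in knockout E13.5 hearts. In wild-type its values were 2955, 2360 and 2173 in ventricles, against 408, 473, 435 and 717 at E13.5. Eno3 rose by 1.69 (SE 0.38, adjusted p = 0.014) in knockout and by 2.32 (SE 0.38, adjusted p = 0.000644) in wild-type on the log2 scale. The knockout call of Eno3 was lost under quantile normalization (adjusted p = 0.0936) and in 2 of the fits that left out 1 library, those without knockout ventricular replicate 2 or 3 (up to 0.07). Eno1, the ubiquitous enolase gene, was at 736, 545 and 500 in knockout ventricles, against 1467, 1077, 1457 and 1179 in knockout E13.5 hearts, and it had log2 differences of -1.13 (SE 0.58) in knockout and -1.26 (SE 0.58) in wild-type that were not called. Without the third atrial pair both Eno1 differences were called (adjusted p = 0.00299 in knockout and 0.000782 in wild-type).

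Of the 4 genes of lactate turnover and transport, Ldhb was called in both genotypes, Slc16a3 in wild-type, and Ldha and Slc16a1 in neither. Ldhb was at 6541, 6818 and 7422 in knockout ventricles, against 3720, 3361, 3774 and 3678 in knockout E13.5 hearts, and at 8883, 8965 and 10180 in wild-type ventricles, against 3665, 4809, 3174 and 4069 in wild-type E13.5 hearts. It rose by 0.93 (SE 0.22, adjusted p = 0.0185) in knockout and 1.26 (SE 0.22, adjusted p = 0.00105) in wild-type on the log2 scale. The knockout call was lost under the GC correction (adjusted p = 0.0833), without knockout pup 2 (0.0747) and in 4 of the fits that left out 1 library, with the highest value without knockout ventricular replicate 3 (0.1004). Ldha, for the muscle-type subunit, had log2 differences of -0.28 (SE 0.38) and -0.58 (SE 0.38) and was not called. Slc16a3 was at 9.77, 3.24 and 39.3 in knockout ventricles, against 84.5, 67.5, 99.7 and 67.2 in knockout E13.5 hearts. In wild-type it was at 2.11, 3.17 and 7.33 in ventricles, against 77.9, 52.4, 59.8 and 62.9 at E13.5. Its log2 difference of -2.70 (SE 0.83) in knockout was not called (adjusted p = 0.0878; 0.0277 without the third atrial pair). In wild-type Slc16a3 fell by a log2 difference of -3.74 (SE 0.83, adjusted p = 0.00909), on ventricular values of 7.33 or below. That call was lost in the fit without wild-type ventricular replicate 1 (limma adjusted p = 0.0518). Slc16a1 encodes MCT1, the carrier through which the heart takes up lactate, and had log2 differences of 1.31 (SE 0.36, adjusted p = 0.0517) in knockout and 0.90 (SE 0.36, adjusted p = 0.176) in wild-type. Slc16a1 was called higher in both genotypes without the third atrial pair (adjusted p = 0.00618 in knockout and 0.0479 in wild-type).

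For mitochondrial entry and oxidation of pyruvate, Mpc1, Mpc2, Pdha1 and Pdhb rose in both genotypes and Dlat in wild-type. Mpc1 was at 3035, 2248 and 3965 in knockout ventricles, against 1122, 833, 855 and 1565 in knockout E13.5 hearts, and at 3487, 3448 and 4976 in wild-type ventricles, against 1130, 1267, 914 and 972 in wild-type E13.5 hearts. Mpc2 was at 2170, 2002 and 1934 in knockout ventricles, against 629, 497, 761 and 610 in knockout E13.5 hearts, and at 2471, 2286 and 4033 in wild-type ventricles, against 550, 867, 712 and 839 in wild-type E13.5 hearts. Neither carrier gene had a ventricular value as low as any embryonic one. Mpc1 rose by 1.505 (SE 0.27, adjusted p = 0.00283) in knockout and 1.88 (SE 0.27, adjusted p = 0.000199) in wild-type, and Mpc2 by 1.72 (SE 0.31, adjusted p = 0.00254) and 1.95 (SE 0.31, adjusted p = 0.000486). Pdha1, the X-linked gene of the catalytic alpha subunit of pyruvate dehydrogenase, rose by 1.15 (SE 0.23, adjusted p = 0.00582) in knockout and 1.75 (SE 0.23, adjusted p = 6.42e-05) in wild-type. Pdhb rose by 1.07 (SE 0.25, adjusted p = 0.019) and 1.45 (SE 0.25, adjusted p = 0.00119). The knockout call of Pdhb was lost under quantile normalization (adjusted p = 0.103), without knockout pup 2 (0.0694) and in 4 of the fits that left out 1 library, with the highest value without knockout ventricular replicate 3 (0.105). Dlat, for the acetyltransferase core of the complex, was at 1697, 926 and 1452 in knockout ventricles, against 731, 577, 1253 and 669 in knockout E13.5 hearts, and these values overlapped. In wild-type ventricles Dlat was at 1809, 1905 and 2284, against 391.6, 718, 805 and 577 in wild-type E13.5 hearts. The knockout difference of 0.77 (SE 0.33) was not called, and in wild-type Dlat rose by 1.72 (SE 0.33, adjusted p = 0.00298). Of the kinases that inhibit the complex, Pdk1 had log2 differences of -0.21 (SE 0.27) and -0.13 (SE 0.27), and Pdk2, at 1.65 to 151 across these groups, of 1.14 (SE 1.35) and 2.09 (SE 1.35), none called.

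**Figure D2:**
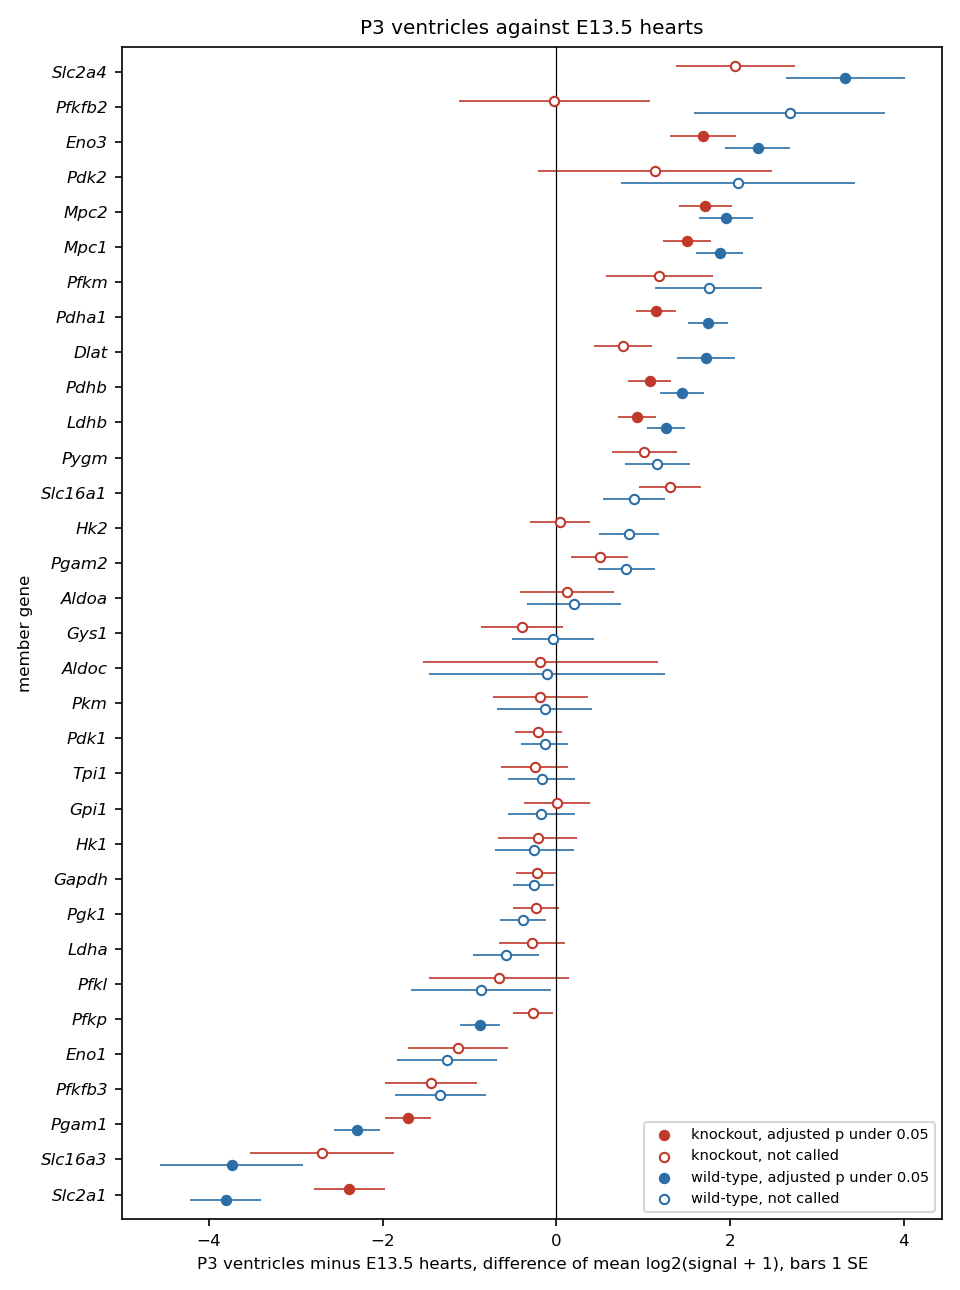
Difference of mean log2(signal + 1) between P3 ventricles and E13.5 hearts for each of the 33 members, in knockout (red, upper) and wild-type (blue, lower), with bars of 1 SE from limma and filled points where the adjusted p was under 0.05. Slc2a1, Pgam1 and Slc16a3 lie farthest left and Slc2a4, Eno3 and the pyruvate carrier and dehydrogenase genes lie to the right.

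The remaining regulators and glycogen genes, Pfkfb2, Pfkfb3, Pygm and Gys1, were not called between ventricles and E13.5 hearts with all libraries in the fit. Pfkfb3, which makes the glycolytic activator fructose 2,6-bisphosphate, had log2 differences of -1.45 (SE 0.53) in knockout and -1.33 (SE 0.53) in wild-type. Pfkfb2, its cardiac relative, had -0.02 (SE 1.10) and 2.69 (SE 1.10). Pygm, for muscle glycogen phosphorylase, had 1.01 (SE 0.37, adjusted p = 0.167) and 1.17 (SE 0.37, adjusted p = 0.076), and Gys1, for muscle glycogen synthase, had -0.39 (SE 0.48) and -0.04 (SE 0.48). Pygm was called higher in both genotypes without the third atrial pair (adjusted p = 0.0406 in knockout and 0.0134 in wild-type).

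Whether the knockout changed these stage differences was tested by the difference of the knockout effects, a contrast added after the data had been seen. No member was called, for ventricles against E13.5 hearts (0% of all genes called in either direction) or for atria against E13.5 hearts (0.00552% called higher and 0% lower). For Slc2a1, the member with the smallest p in ventricles, the knockout effect was higher in ventricles than at E13.5 by 1.42 on the log2 scale (SE 0.58, limma adjusted p = 1). At an unadjusted p under 0.05 it was 1 member higher and 0 lower in ventricles (326 and 403 of all genes), and 2 higher and 1 lower in atria (451 and 453 of all genes). The smaller stage differences in knockout ventricles are therefore not shown to differ from those in wild-type ventricles.

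Promoter windows are printed for the 6 members called lower in any stage comparison, and for 1 called higher beside them, to show what sequence lies at each. They run from 250 bases before to 50 bases after a transcription start, 5′ to 3′ on the gene's strand, as given by RefSeq for GRCm38.p6. Capitals mark ACGTG on either strand (so CACGT where it lies on the opposite one), the core letters of the element bound by hypoxia-inducible factors and also part of the E-box CACGTG; this motif was chosen with the stage results known.
Slc2a1 (chr4:119108495-119108794, plus strand): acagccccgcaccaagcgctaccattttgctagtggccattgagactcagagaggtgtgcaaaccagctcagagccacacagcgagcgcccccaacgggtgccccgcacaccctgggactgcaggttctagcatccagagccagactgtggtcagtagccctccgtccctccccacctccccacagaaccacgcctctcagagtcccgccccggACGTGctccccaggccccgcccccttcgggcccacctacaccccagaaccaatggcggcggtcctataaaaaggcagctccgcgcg
Slc16a3 (chr11:120948817-120949116, plus strand): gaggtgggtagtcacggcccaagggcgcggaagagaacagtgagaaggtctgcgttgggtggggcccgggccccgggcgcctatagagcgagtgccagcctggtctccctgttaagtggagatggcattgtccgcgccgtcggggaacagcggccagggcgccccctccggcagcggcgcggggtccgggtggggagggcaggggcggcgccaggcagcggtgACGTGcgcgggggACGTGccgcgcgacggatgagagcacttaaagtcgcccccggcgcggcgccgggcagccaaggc
Pgam1 (chr19:41911621-41911920, plus strand): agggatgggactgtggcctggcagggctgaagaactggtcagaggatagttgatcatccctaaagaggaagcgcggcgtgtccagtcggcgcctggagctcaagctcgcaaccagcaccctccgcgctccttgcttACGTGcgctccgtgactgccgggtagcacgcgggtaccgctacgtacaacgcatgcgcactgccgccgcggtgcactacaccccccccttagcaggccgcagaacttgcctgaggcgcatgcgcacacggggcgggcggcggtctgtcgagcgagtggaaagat
Pgk1 (chrX:106186850-106187149, plus strand): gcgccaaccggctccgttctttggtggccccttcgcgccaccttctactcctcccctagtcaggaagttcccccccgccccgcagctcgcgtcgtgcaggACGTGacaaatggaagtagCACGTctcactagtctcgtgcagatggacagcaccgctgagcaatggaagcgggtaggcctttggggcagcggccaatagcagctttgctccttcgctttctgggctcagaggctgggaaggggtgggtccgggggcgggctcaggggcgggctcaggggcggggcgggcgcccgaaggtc
Pfkp (chr13:6648722-6649021, minus strand): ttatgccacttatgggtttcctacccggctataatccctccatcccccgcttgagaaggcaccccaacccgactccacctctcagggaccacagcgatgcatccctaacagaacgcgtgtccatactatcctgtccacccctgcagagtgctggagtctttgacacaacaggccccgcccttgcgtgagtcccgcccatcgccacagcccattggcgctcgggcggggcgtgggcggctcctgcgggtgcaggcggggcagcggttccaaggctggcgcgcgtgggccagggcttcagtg
Gapdh (chr6:125165724-125166023, minus strand): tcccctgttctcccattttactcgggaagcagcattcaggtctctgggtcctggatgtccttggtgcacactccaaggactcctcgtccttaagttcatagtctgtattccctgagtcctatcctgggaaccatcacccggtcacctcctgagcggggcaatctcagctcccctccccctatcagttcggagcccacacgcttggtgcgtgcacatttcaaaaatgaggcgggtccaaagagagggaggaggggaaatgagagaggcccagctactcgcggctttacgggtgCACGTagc
Mpc2 (chr1:165461010-165461309, plus strand): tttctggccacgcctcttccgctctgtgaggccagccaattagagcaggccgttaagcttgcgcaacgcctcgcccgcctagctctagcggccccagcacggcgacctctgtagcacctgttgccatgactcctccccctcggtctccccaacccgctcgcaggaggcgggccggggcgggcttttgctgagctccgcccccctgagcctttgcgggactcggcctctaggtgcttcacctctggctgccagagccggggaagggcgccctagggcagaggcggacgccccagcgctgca

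Slc2a1, Slc16a3, Pgam1 and Pfkp were called lower in wild-type ventricles, Slc2a1 and Pgam1 also in knockout ventricles, and Slc2a1, Pgam1, Pfkp, Pgk1 and Gapdh in wild-type atria, and Mpc2 was called higher in ventricles of both genotypes. The 5 letters were found 1 time in the Slc2a1 window, 2 times in the Slc16a3 window, 1 time in the Pgam1 window, 2 times in the Pgk1 window, 0 times in the Pfkp window, 1 time in the Gapdh window and 0 times in the Mpc2 window. RefSeq windows were matched for 32 of the 33 members, 49 windows in all, and Slc2a4 had none. The motif lay in 22 of these 49 windows (44.9%), against 19.6% of all 32851 windows, while the median GC content of the windows was 61.3% against 52.7%. By gene, 5 of the 6 members called lower in any stage comparison had it in a window (all but Pfkp), against 1 of 7 called higher with a window (Pdhb) and 12 of 19 not called. These sets use the calls with all libraries in the fit, and the contrast depends on that choice. Without the third atrial pair Pfkm, Pygm and Slc16a1, which have the motif, and Pgam2, which lacks it, were also called higher. Ldha, Aldoa and Pkm, which have it, and Eno1 and Tpi1, which lack it, were then also called lower. The share by gene was 21.8% over all 27025 genes with a window and 56.2% over the members (18 of 32). A match of 5 letters is a description of the sequence and not evidence of binding.

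In atria the stage comparison depended on the third pair. In knockout atria 0 members were called higher than at E13.5 (1.95% of all genes) and 0 lower (0.855%), with 4 higher and 4 lower at an unadjusted p under 0.05 (1630 and 1113 of all genes). In wild-type atria 2 were called higher (3.11%) and 5 lower (2.39%). Without the third pair 0 members were higher and 3 lower in knockout atria (1.62% and 0.971% of all genes). In wild-type atria 5 were then higher and 10 lower (3% and 2.59%). The median over the members was -0.52 in knockout and -0.36 in wild-type without the pair, against 0.25 in knockout and -0.05 in wild-type with it. Leaving out single libraries also moved the counts: without knockout atrial replicate 3 alone, 5 members were higher in wild-type atria, and without wild-type atrial replicate 3 alone, 3 were lower. In knockout atria 1 member was called higher in 3 such fits (without E13.5 knockout replicate 4, knockout atrial replicate 2 or wild-type atrial replicate 3), and 1 lower without knockout ventricular replicate 3. Pgam1 was at 1389, 1730 and 2309 in knockout atria, against 2779 to 3778 in knockout E13.5 hearts, and at 1057, 867 and 943 in wild-type atria, against 3269 to 3875 in wild-type E13.5 hearts. In knockout atria it was called lower without the third pair (log2 difference -1.08, SE 0.26, adjusted p = 0.0276) and not with it (-0.89, adjusted p = 0.0764), and in wild-type atria it fell by -1.92 (SE 0.26, adjusted p = 0.000154). Slc2a1 fell in wild-type atria by a log2 difference of -2.58 (SE 0.41, adjusted p = 0.000704), and Slc2a4 rose by 3.55 (SE 0.68, adjusted p = 0.00357). Without the third pair these were -2.87 (adjusted p = 0.000547) and 3.27 (adjusted p = 0.0165). The atrial call of Slc2a4 was not among those that held under every alternative other than those added after seeing the data. Slc2a4 was at 90.4, 30.3 and 115 in knockout atria, against 161, 112 and 242 in wild-type atria. Pgk1, Gapdh and Pfkp were lower by -1.17 (SE 0.27), -0.91 (SE 0.24) and -0.97 (SE 0.23) in wild-type atria, and Eno3 was higher by 1.67 (SE 0.38). Without the third pair all 4 were still called, at -0.93, -1.03, -0.85 and 1.29. The calls of Pgk1, Pfkp and Eno3 were each lost in the fit without wild-type atrial replicate 3 alone, with adjusted p of 0.0526, 0.0528 and 0.0745. Gapdh lost its call in 5 of the fits that left out 1 library, with the highest adjusted p of 0.0969 without wild-type atrial replicate 1, and under quantile normalization (adjusted p = 0.352). Gapdh is also uncertain because 63 near-identical copies in the table held a signal equal to 17.1% of its own.

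With both atrial libraries of replicate 3 left out, Pfkp (-0.89, SE 0.20) and Ldha (-0.95, SE 0.24) were called lower in knockout atria beside Pgam1. In wild-type atria Tpi1, Aldoa, Pkm, Ldha and Eno1 were then added to the members called lower, with log2 differences of -0.91, -0.72, -0.86, -0.89 and -1.74. Mpc1, Pdha1 and Pgam2 were added to those called higher, with 1.00, 0.87 and 0.68.

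The isoform ratios summarise the stage differences within each library, which cancels any offset that both genes of a ratio share. The log2 ratio of Slc2a4 to Slc2a1, per kb, was -0.12 to 1.36 in knockout and 1.82 to 2.91 in wild-type ventricles, -2.39 to 0.02 in knockout and 1.16 to 1.25 in wild-type atria, and -4.70 to -3.23 in knockout and -7.52 to -3.73 in wild-type E13.5 hearts. Eno3 over Eno1 ran from 1.46 to 2.19 in knockout and 2.36 to 2.92 in wild-type ventricles, -1.10 to 0.28 in knockout and 0.93 to 2.46 in wild-type atria, and -1.06 to -0.78 in knockout and -1.34 to -0.68 in wild-type E13.5 hearts. For Ldhb over Ldha the values were 1.22 to 1.80 in knockout and 2.15 to 2.32 in wild-type ventricles, against -0.21 to 0.64 in knockout and 0.18 to 0.61 in wild-type E13.5 hearts. Pgam2 over Pgam1 was above 0 in every P3 library, at 1.17 or more, and below 0 in every E13.5 library. Pfkm over Pfkp was -1.82 to -1.66 in knockout and -1.31 to -0.68 in wild-type ventricles, against -3.32 to -2.86 in knockout and -4.29 to -3.28 in wild-type E13.5 hearts. Slc16a1 over Slc16a3 was at 6.71 or more in the ventricles and at 4.69 or less at E13.5. Hk1 over Hk2 overlapped between stages in knockout, and in wild-type it was -2.08 to -1.22 in ventricles against -1.15 to 0.22 at E13.5. Pdk2 over Pdk1 overlapped between stages in both genotypes. In 5 of the 8 ratios the ventricular values of knockout and wild-type did not overlap, each time with knockout the lower: Slc2a4 over Slc2a1, Pfkm over Pfkp, Eno3 over Eno1, Ldhb over Ldha and Pdk2 over Pdk1, the last at -3.56 to -2.96 in knockout and -2.51 to -1.36 in wild-type. Each of these 5 holds a gene that by itself did not overlap in ventricles (Slc2a1, Pfkp, Eno3, Ldhb or Pdk2). The count is therefore not independent of those single genes. In atria 2 of the 8 did not overlap, Slc2a4 over Slc2a1 and Eno3 over Eno1, again with knockout the lower, and at E13.5 0 of 8. Of all single genes tested, 10.5% did not overlap in ventricles, 7.91% in atria and 2.54% at E13.5; no background over other gene pairs was computed, and no test was made of a ratio. Aldoa and Aldoc, the last isoform set, were not set in a ratio because Aldoc was listed at 0 in 1 library and at 96.8 or below in all others.

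**Figure D3:**
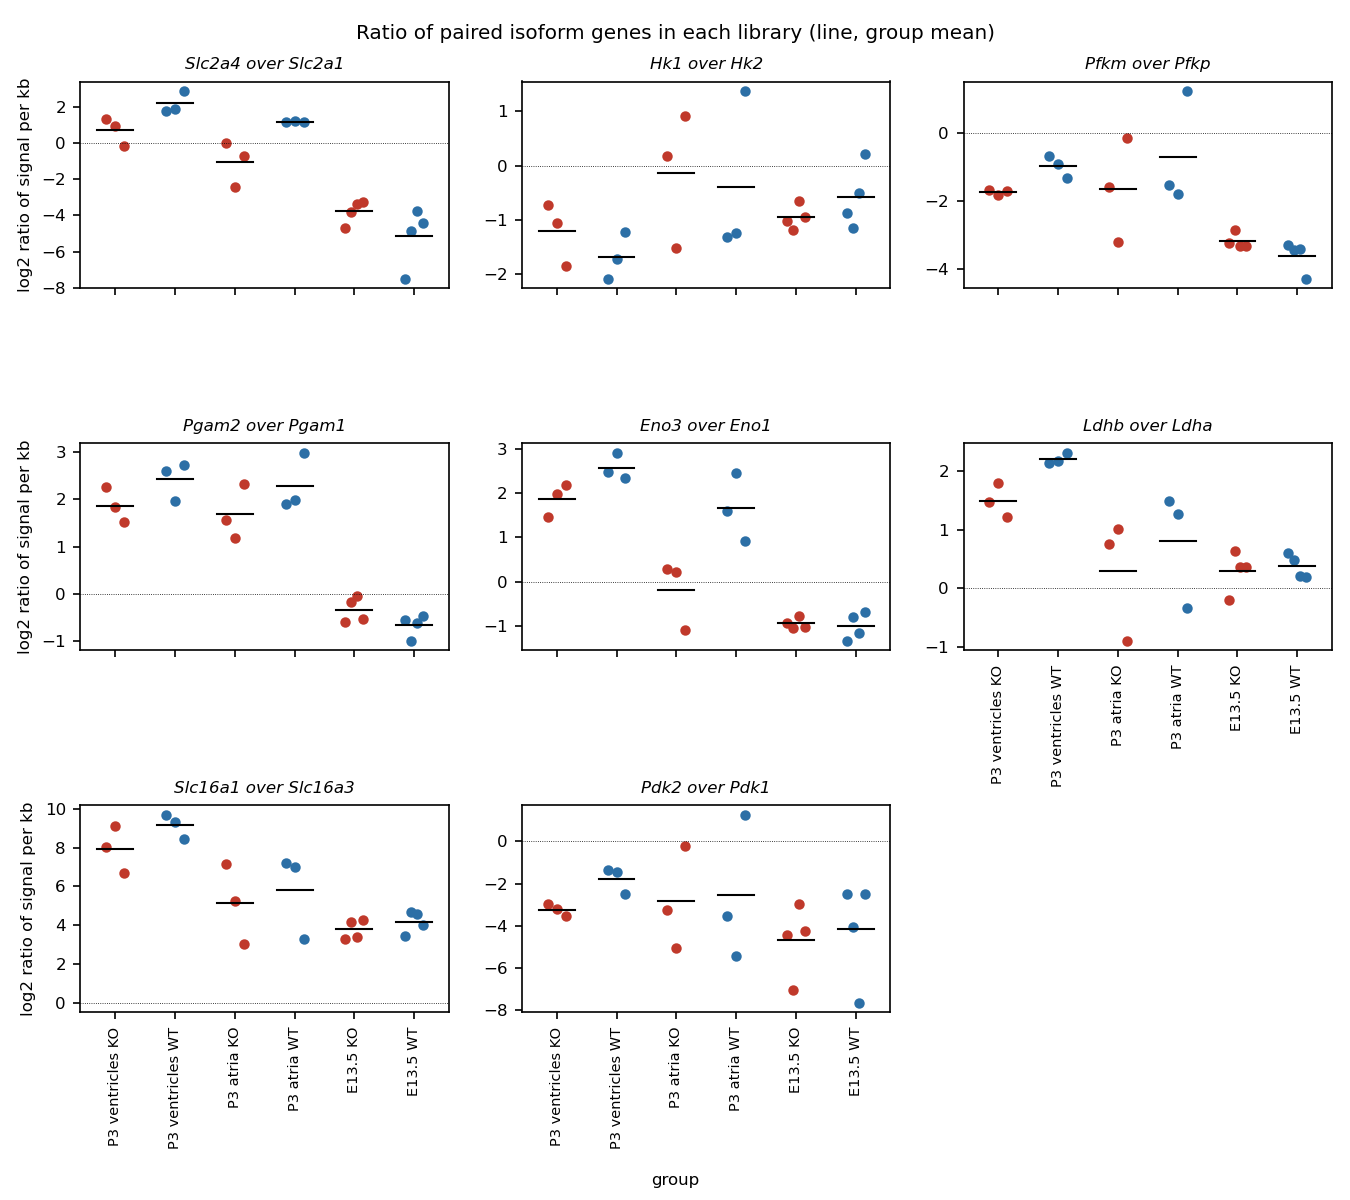
Log2 ratio of the signal per kb of 2 isoform genes in each library (points, red knockout and blue wild-type; lines, group means), by group. The ratios of muscle to broadly expressed isoforms (Slc2a4 over Slc2a1, Pgam2 over Pgam1, Eno3 over Eno1) and of Ldhb over Ldha were higher in P3 ventricles than at E13.5, and the third atrial pair lies apart in Pfkm over Pfkp, at -0.13 in knockout and 1.25 in wild-type.

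The cell-type markers also differed between the stages, and their part in the stage results was not tested. The sum over 11 erythroid genes was 17660 to 30960 in knockout and 10370 to 25490 in wild-type ventricles, against 47390 to 245800 in knockout and 60910 to 235000 in wild-type E13.5 hearts. The 14 cell-cycle genes summed to 8327 to 12190 and 6957 to 10520 in ventricles, against 13440 to 17840 and 14330 to 15200 at E13.5, each in knockout and in wild-type. Over the 18 cardiomyocyte genes the sums were 326500 to 369000 in knockout and 346500 to 398500 in wild-type ventricles, against 139700 to 182800 in knockout and 155000 to 183700 in wild-type E13.5 hearts. The 9 adipocyte genes measured summed to 17130 to 19870 in knockout and 24390 to 30840 in wild-type ventricles, against 2310 to 3373 in knockout and 1880 to 3152 in wild-type E13.5 hearts. The 12 endothelial genes were at 8794 to 11350 in knockout and 12170 to 16220 in wild-type ventricles, against 3526 to 3876 in knockout and 3232 to 3733 in wild-type E13.5 hearts. Fabp4 is in both the adipocyte and the endothelial list, so these sums are not independent. The 12 fibroblast genes summed to 56490 to 70950 in knockout and 53900 to 58680 in wild-type ventricles, against 29420 to 43200 in knockout and 25890 to 31030 in wild-type E13.5 hearts. In these groups 1 erythroid gene was at 0 throughout wild-type ventricles. Of the 9 adipocyte genes, 1 was at 0 throughout knockout ventricles, 2 throughout wild-type ventricles and 3 throughout each E13.5 group.

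Between genotypes, in the fit without the replicate block, the differences were small against the spread. In ventricles, atria and E13.5 hearts alike, 0 of the 33 members were called higher or lower by limma. Over all genes tested 0% were called in either direction in ventricles and at E13.5, and 0.0221% were called higher and 0.00552% lower in atria. At an unadjusted p under 0.05 there were 2 members higher and 0 lower in ventricles (361 and 346 of all genes), 4 and 0 in atria (534 and 430), and 1 and 0 at E13.5 (433 and 314). With the replicate number as a block, Slc2a1, Aldoa, Tpi1, Gapdh, Pgk1, Pgam1, Eno1 and Slc16a1 were higher in knockout atria at that threshold. No member was lower there. With the block but without the third atrial pair, Eno1 was higher and Eno3 and Ldhb were lower. The share of all genes at that threshold with the block is not given here. The median log2 difference over the members was -0.10 in ventricles, 0.19 in atria (0.00 without the third pair) and 0.01 at E13.5, beside medians of -0.01, 0.00 and 0.01 over all genes.

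In ventricles Slc2a1 had the smallest p, with 69.9, 54.5 and 150 in knockout against 37.4, 47.0 and 33.3 in wild-type. Every knockout library was above every wild-type one, and the log2 difference was 1.08 (SE 0.44, limma adjusted p = 1). Pfkp was at 1327, 1092 and 1456 in knockout against 774, 972 and 927 in wild-type ventricles, a difference of 0.53 (SE 0.24, limma adjusted p = 1). Ldhb was lower in every knockout ventricle, at 6541, 6818 and 7422 against 8883, 8965 and 10180, a difference of -0.43 (SE 0.23, limma adjusted p = 1). In all, 9 members did not overlap between the ventricular groups, against 10.5% of all genes tested. Slc2a1 and Pfkp were the higher ones, and Eno3, Ldhb, Pdk2, Pdha1, Dlat, Mpc2 and Pygm the lower ones. Pdk2 was at 48.7, 50.02 and 45.6 in knockout against 144, 151 and 71.7 in wild-type. Pdha1 was at 4822, 3750 and 4942 against 5300, 5507 and 6572, and Dlat at 1697, 926 and 1452 against 1809, 1905 and 2284. Pair by pair, 5 members were higher in knockout in all 3 ventricular pairs (Slc2a1, Pfkl, Pfkp, Slc16a3 and Pdk1) and 11 were lower in all 3 (Tpi1, Eno3, Ldhb, Pdk2, Pdha1, Pdhb, Dlat, Mpc1, Mpc2, Pfkfb3 and Pygm), against 12.5% and 12.99% of all genes. The members were chosen with earlier results known, and no test of the set was made. Marker sums also differed between these ventricles. The adipocyte genes summed to 17130, 19870 and 19450 in knockout against 24390, 29050 and 30840 in wild-type, and the endothelial genes to 8794, 11260 and 11350 in knockout against 12170, 14790 and 16220 in wild-type, both without overlap. Fabp4 is in both lists, so the sums are not independent. By gene, 1 of the 7 adipocyte genes tested and 4 of the 12 endothelial genes had a higher mean log2 signal in knockout. The median log2 differences were -0.57 and -0.20. The 9 atrial marker genes summed to 15030, 7399 and 35460 in knockout against 3854, 3871 and 9885 in wild-type ventricles, higher in knockout in every pair. Only 5 of these 9 had a higher mean log2 signal in knockout, with a median log2 difference of 0.25 over the list. The part of these markers in the ventricular differences was not tested.

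In atria the differences were read per pair. The members' median log2 difference was 0.07, -0.01 and 0.56 in pairs 1, 2 and 3, with 20, 15 and 24 of the 33 above 0, while the median over all genes was 0.00, 0.00 and -0.05. Eno1 was at 843, 712 and 6803 in knockout atria, against 447, 330 and 1795 in wild-type atria, and was higher in knockout in all 3 pairs though the groups overlapped. Its log2 difference of 1.31 (SE 0.62, adjusted p = 0.926) was not called without the replicate block. With the replicate number as a block it was called (SE 0.22, adjusted p = 0.0425), the only member called, where 0.11% of all genes were called higher. The call was lost with the block and a GC correction together (1.30, SE 0.24, adjusted p = 0.0653) and with the block but without the third pair (1.01, SE 0.25, adjusted p = 0.26). Pgam1 was at 1389, 1730 and 2309 in knockout atria, against 1057, 867 and 943 in wild-type atria, with no overlap and a log2 difference of 0.89 (SE 0.28, limma adjusted p = 0.625), or 0.69 (SE 0.30) without the third pair. Pgk1 was at 4503, 4628 and 5954 in knockout and at 3226, 4380 and 2305 in wild-type atria, a difference of 0.64 (SE 0.28, limma adjusted p = 0.899), or 0.28 (SE 0.26) without the third pair. Pgam1 and Pgk1 were the only members without overlap in atria, where 7.91% of all genes had none. Slc2a1 was at 115, 205 and 238 in knockout against 92.5, 60.9 and 140 in wild-type atria (0.94, SE 0.44, limma adjusted p = 0.926; 1.02, SE 0.50, without the third pair).

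In all 3 atrial pairs 11 members were higher in knockout: Slc2a1, Gpi1, Aldoa, Tpi1, Gapdh, Pgk1, Pgam1, Pgam2, Eno1, Pkm and Slc16a3. Those lower in all 3 were Slc2a4, Pfkm, Eno3 and Pygm, against 15.1% of all genes higher and 16.1% lower in all pairs. The sum of the 11 erythroid genes was higher in every knockout atrium, at 31100, 41650 and 133200 against 15960, 15600 and 18830 in wild-type, and so was that of the 16 skeletal muscle genes measured, at 11900, 15180 and 20770 against 9951, 8992 and 6910. Of the 11 skeletal muscle genes tested, 7 had a higher mean log2 signal in knockout, and the median log2 difference was 1.04. Ckm is in both the skeletal muscle and the cardiomyocyte list. The 14 cell-cycle genes summed to 11980, 12090 and 7256 in knockout against 4898, 7347 and 5429 in wild-type atria. The 9 smooth muscle genes summed to 5658, 6065 and 12120 in knockout against 1839, 3964 and 6659 in wild-type atria, higher in knockout in every pair. By gene the list was mixed: 4 of the 9 had a higher mean log2 signal in knockout, and the median log2 difference was -0.33. Other sums were lower in every knockout atrium than in its pair: the 12 fibroblast genes were at 72790, 69960 and 74700 in knockout against 95250, 89610 and 91720 in wild-type, and the 9 adipocyte genes at 5889, 6391 and 3134 in knockout against 12420, 14000 and 4173 in wild-type. Casq1, a skeletal muscle calsequestrin gene, was at 424, 540 and 1628 in knockout atria against 26.4, 55.0 and 79.6 in wild-type atria. Actn3, of fast muscle fibres, was at 0, 0 and 11.5 in knockout atria against 23.9, 0 and 21.2 in wild-type atria, and 1 of the 16 skeletal muscle genes was at 0 throughout each atrial group. The part of these markers in the atrial differences was not tested.

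**Figure D4:**
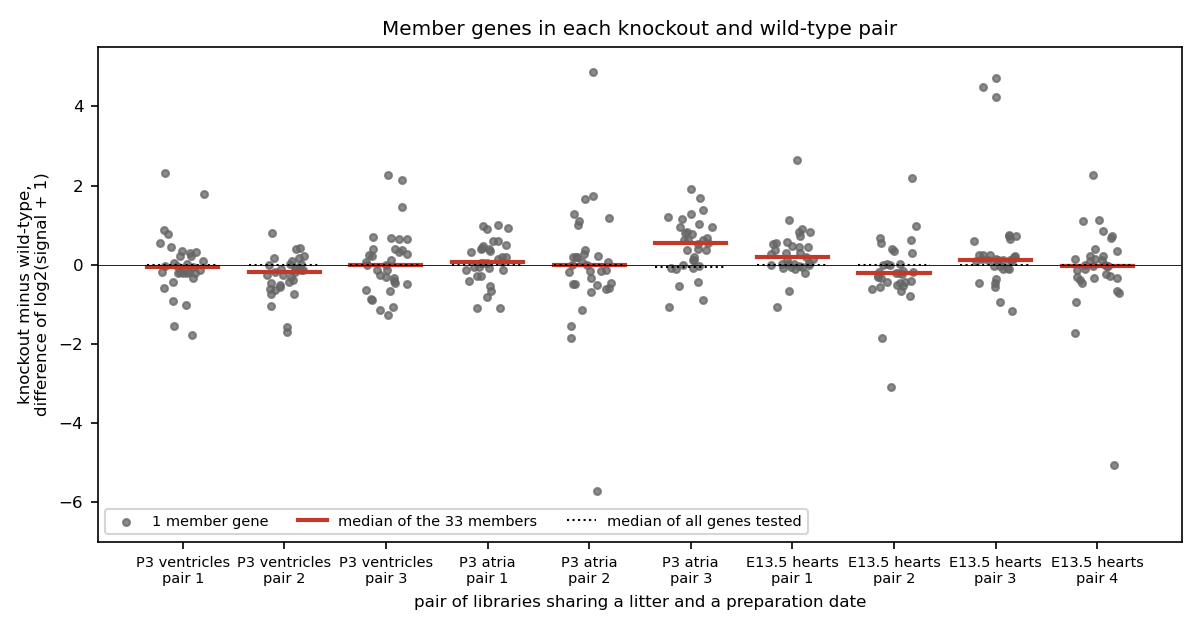
Knockout minus wild-type difference of log2(signal + 1) for each of the 33 members (points) in each pair of libraries that share a litter and a preparation date, with the median of the members (red line) and of all genes tested (dotted line). The members' median is 0.56 in the third atrial pair and between -0.22 and 0.19 in the 9 other pairs.

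At E13.5 no member differed without overlap (2.54% of all genes did). Pfkfb2 had the smallest p, at 30.9, 177, 65.5 and 118 in knockout against 13.7, 89.7, 1.98 and 23.8 in wild-type hearts. It was higher in knockout in all 4 pairs, by a mean log2 difference of 2.21 (SE 1.02, limma adjusted p = 1), and the groups overlapped. Pfkfb3 was at 75.6, 30.4, 50.7 and 93.6 in knockout against 121, 112, 116 and 85.6 in wild-type, a difference of -0.89 (SE 0.49, limma adjusted p = 1). Slc2a4 had a difference of 0.88 (SE 0.63, limma adjusted p = 1). The members' median was 0.19, -0.22, 0.11 and -0.04 in the 4 pairs. Only Slc16a3 and Pfkfb2 were higher in knockout in all 4 (5.61% of all genes were) and only Pygm was lower in all 4 (5.495%). Replicates 2 and 3 came from 1 litter and day, so these values per pair rest on an arbitrary matching there.

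Ventricles and atria of the same pups were compared by limma on the 6 within-pup differences. Ldhb was the only member called, at 6541, 6818 and 7422 in knockout and 8883, 8965 and 10180 in wild-type ventricles, against 2817, 2907 and 2941 in knockout and 4104, 4360 and 2713 in wild-type atria. It was higher in the ventricles of all 6 pups, with a log2 difference of 1.31 (SE 0.24, adjusted p = 0.0387), where 0.596% of all genes were called higher and 0.85% lower. The call was lost in each of the 6 fits that left out 1 pup, wild-type pup 2 and knockout pup 2 included. Mpc2 (1.56, SE 0.31, adjusted p = 0.0546) and Hk2 (1.10, SE 0.23, adjusted p = 0.0599) came next on the ventricular side, and Slc2a1 (-1.16, SE 0.37, adjusted p = 0.184) on the atrial side. Without the third atrial pair 3 members were called higher in ventricles (0.463% of all genes) and 0 lower (0.43%), and the median over the members was 0.50 against 0.24 with it. The knockout effect did not differ between ventricles and atria for any member by limma (0% of all genes called in either direction), with 0 members at an unadjusted p under 0.05 against 269 higher and 200 lower of all genes.

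**Figure D5:**
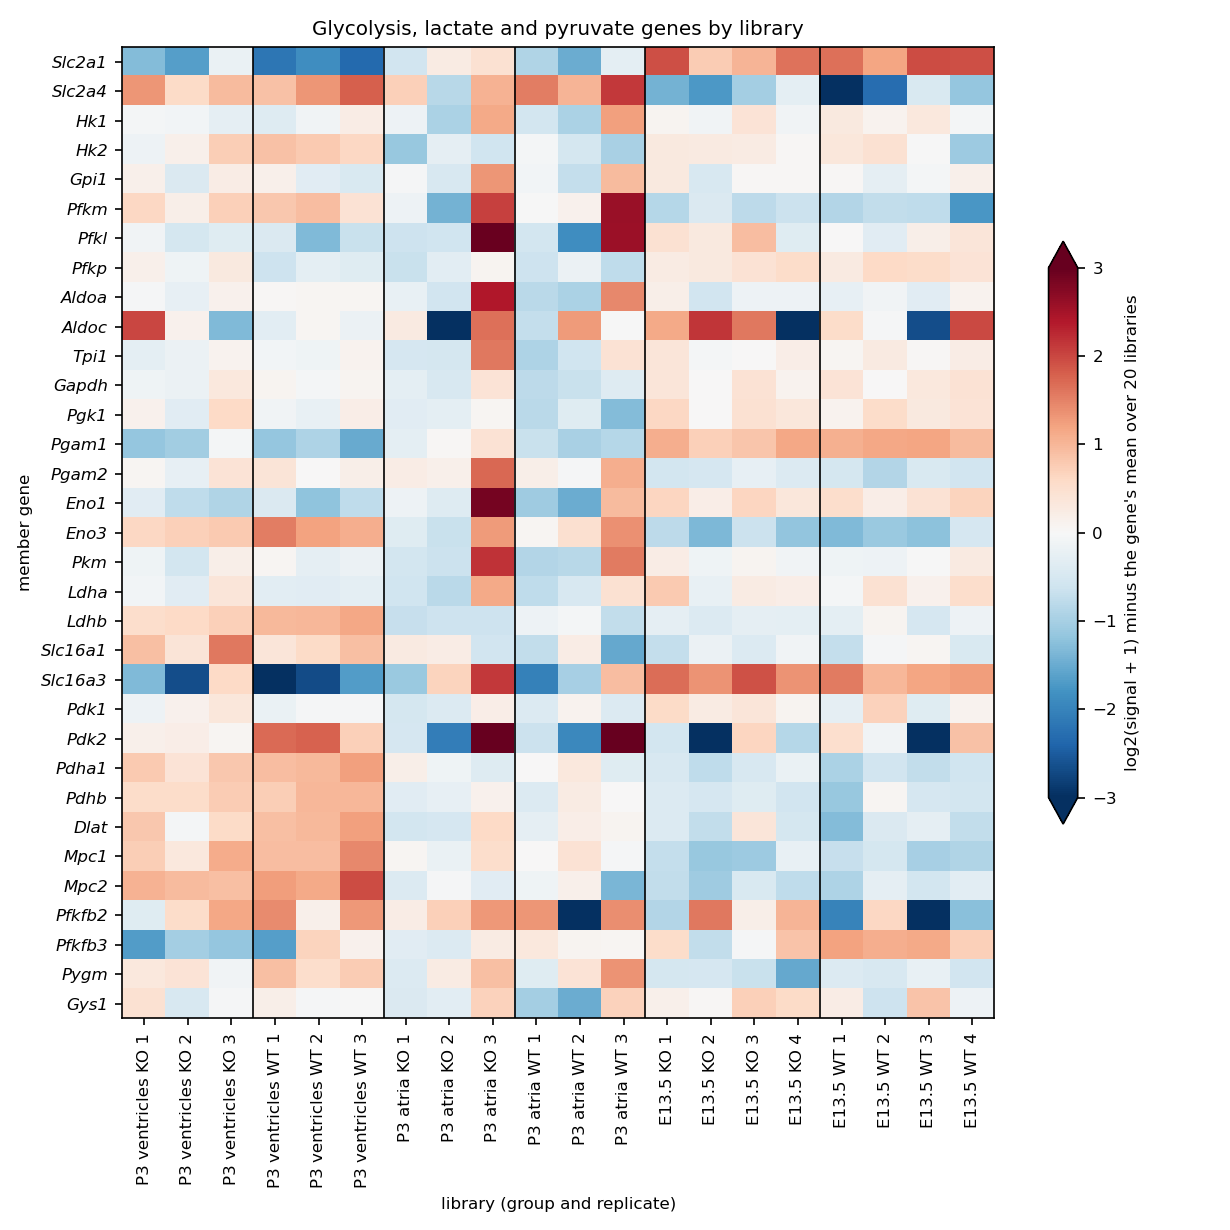
Log2(signal + 1) of each of the 33 members in each of the 20 libraries, minus the member's mean over the 20 libraries (colour, from -3 to 3 on the log2 scale). The pyruvate carrier and dehydrogenase genes, Ldhb and Eno3 are high in P3 ventricles, Slc2a1, Pgam1 and Slc16a3 are high at E13.5, and Pfkl, Pfkm, Aldoa, Pkm and Pdk2 are highest in the third atrial pair.

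Other genes of the pathway, 47 tested of 57 listed, were counted beside the members. By limma 0 were called between genotypes in any tissue. At an unadjusted p under 0.05 it was 1 higher and 3 lower in knockout ventricles, 2 higher and 2 lower in knockout atria, and 1 higher and 0 lower in knockout E13.5 hearts. In ventricles against E13.5 hearts 3 were called higher and 1 lower in knockout, and 4 higher and 2 lower in wild-type. Pdk4, the fasting-induced pyruvate dehydrogenase kinase, had the smallest adjusted p, at 1491 ± 485 (SD, n = 3) in knockout ventricles against 110 ± 50.4 (SD, n = 4) in knockout E13.5 hearts, and at 1936 ± 424 (SD, n = 3) in wild-type ventricles against 132 ± 51.2 (SD, n = 4) in wild-type E13.5 hearts. It rose by log2 differences of 3.81 (SE 0.37, adjusted p = 3.24e-06) and 3.93 (SE 0.37, adjusted p = 8.3e-07), and it was higher in ventricles than in atria by 1.83 (SE 0.22, adjusted p = 0.00855). Pdk3, another kinase of the complex, fell in knockout ventricles by a log2 difference of -1.57 (SE 0.40, adjusted p = 0.0376). Pdhx, which anchors the E3 subunit of the complex, rose by 1.47 (SE 0.38, adjusted p = 0.0391) in knockout and 1.499 (SE 0.38, adjusted p = 0.0232) in wild-type ventricles, and Pdp1, the phosphatase that reactivates the complex, by 1.99 (SE 0.47, adjusted p = 0.0145) in wild-type. Gyg, for glycogenin, fell by a log2 difference of -1.85 (SE 0.25, adjusted p = 9.85e-05) in wild-type ventricles, and Slc2a3, for the transporter GLUT3, by -2.02 (SE 0.58, adjusted p = 0.0438). Fbp2, the muscle fructose bisphosphatase gene, was at 51.4 ± 45.3 (SD, n = 3) in knockout ventricles, ranging from 0 to 85.7, against 0.216 ± 0.431 (SD, n = 4) in knockout E13.5 hearts, and was not called there. It was at 161 ± 15.5 (SD, n = 3) in wild-type ventricles, where it was called higher, and listed at 0 in all 4 wild-type E13.5 hearts.

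In atria against E13.5 hearts 1 of these genes was called higher and 2 lower in knockout, and 4 higher and 1 lower in wild-type. Pdk4 rose by 2.04 (SE 0.37, adjusted p = 0.00278) in knockout and 2.05 (SE 0.37, adjusted p = 0.00225) in wild-type atria. Gyg fell by log2 differences of -1.43 (SE 0.25, adjusted p = 0.00228) and -1.98 (SE 0.25, adjusted p = 7.91e-05), and Pdk3 by -1.77 (SE 0.40, adjusted p = 0.0177) in knockout. Phkg1, a phosphorylase kinase subunit gene, and Ppp1r3c, which targets a phosphatase to glycogen, rose in wild-type atria by 1.31 (SE 0.38, adjusted p = 0.0467) and 1.12 (SE 0.32, adjusted p = 0.0448). Gpd1, the cytosolic glycerol 3-phosphate dehydrogenase gene, was at 51.7 ± 77.4 (SD, n = 3) in wild-type atria and at 0.205 ± 0.411 (SD, n = 4) in wild-type E13.5 hearts, and it was called higher with an SD above its mean. Without the third atrial pair the calls of Gpd1 (adjusted p = 0.217) and Phkg1 (adjusted p = 0.164) were lost. Those of Pdk4 (2.23 in knockout and 2.205 in wild-type), Gyg (-1.28 in knockout and -1.86 in wild-type), Pdk3 (-1.60 in knockout) and Ppp1r3c (1.32 in wild-type) were kept.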

How the data were processed

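Messenger RNA was sequenced by SMART-Seq2 after RNeasy Micro extraction, per the labels' protocols. The submitters' processing notes list mm10, DESeq2, STAR 2.5.1 and bcl2fastq 2.2, without role or order, and how reads were counted is not given in the sources used here. A single table was deposited, with a normalized signal for 26440 genes in 20 libraries. In all libraries the median ratio to the gene-wise mean was 1.04. Low values were multiples of a step per library that gives the estimated read totals, but over all genes only 45.2% to 64.6% of values were whole reads within 0.001, so no count test was used. Totals cover counting error only.

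Signals were tested as log2(signal + 1) in R 4.3.3 with limma 3.58.1, two-sided, with a variance trend and a mean for each of 6 groups (14 residual and 6.68 prior degrees of freedom), over 18125 genes with a signal of at least 10 in at least 3 libraries. Benjamini-Hochberg adjusted p under 0.05 was called, and fold changes on this scale understate changes of low genes. Atria and ventricles of a pup enter that fit as separate libraries; chambers were compared on within-pup differences. P-values measure the spread between these libraries, and for the chambers the spread of the within-pup differences.

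Per the labels, same-numbered libraries of a tissue were littermates prepared on 1 day, which makes them pairs. Their deviations correlated at 0.212 to 0.638 in atria, 0.02 to 0.0658 in ventricles and -0.0159 to 0.0159 at E13.5. The fit without the block was the main one. Members and lists were chosen with earlier results of these data known. Isoform sets, members called with or without the block and the 3 smallest p per knockout comparison are given per library, and called genes of the other pathway list (at most 4 per direction) are named, except a result that is not reported here. Gene coordinates, lengths and GC content came from GENCODE for mm10. Strandedness is not stated, and Hk1, Gpi1, Pfkm, Pfkp, Aldoa, Tpi1, Gapdh, Pdha1, Mpc1, Pfkfb2 and Gys1 overlap exons of a gene on the opposite strand. Alternatives were pseudocounts of 0.1 and 10, no filter, upper-quartile scaling, quantile normalization, a GC correction, the replicate block, Xist as a covariate, fits of the compared groups alone, and leaving out libraries, pups, the third atrial pair or preparation years. Tests were tried on simulated data.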

Additional observations from a re-analysis of the deposited data

Results flagged for a closer look

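In 3 of the 66 sets of 4 E13.5 libraries (33 members in each genotype) the lowest library was far from the other 3 by Dixon's 95% criterion, which chance alone meets in about 1 set of 20. Hk2 was at 456 in E13.5 knockout replicate 4, against 547, 540 and 532 in the others of its group. Pygm was at 115 in E13.5 knockout replicate 4, against 235, 237 and 211. Pfkm was at 56.1 in E13.5 wild-type replicate 4, against 103, 114 and 112. All 3 were replicate 4, the E13.5 pair prepared in 2018.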

How the results depend on the processing

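None of the called results changed sign under an alternative tried. Of the 9773 values that the 33 members' uncalled differences took under other settings, 494 had the other sign, and the members' median in knockout atria against E13.5 was -0.52 without the third atrial pair, against 0.25 with it. Of the 28 calls of members 16 held under every alternative other than those added after seeing the data. Members called between genotypes counted 0 in all fits but the replicate block, which added Eno1 in atria (1 higher) and changed no other call; embryos and pups share no litter, so no block entered the stage fits. The other counts of members called that moved by more than 1.5 times were these, and the cause was not tested. Quantile normalization gave 1 higher in knockout atria and 4 higher and 3 lower in wild-type atria against E13.5, where the report gives 0, 2 and 5. The GC correction gave 2 lower in knockout atria, 5 higher in wild-type atria and 3 higher in ventricles than in atria. With the 2 compared groups alone, which has fewer samples, wild-type atria had 0 higher and 2 lower. Without the third atrial pair 4 were lower in knockout ventricles, 3 lower in knockout atria, 5 higher and 10 lower in wild-type atria, and 3 higher in ventricles than in atria; 9 were then higher in knockout ventricles, and 12 higher and 5 lower in wild-type ventricles. With the 2018 libraries only, chosen after seeing the data and with few samples, knockout ventricles had 0 higher and 0 lower, wild-type ventricles 0 and 1, and wild-type atria 0 and 0. Between chambers, Ldhb alone was higher; a pseudocount of 10 gave 2 higher, no filter 0, no replicate block 7 higher and 1 lower, and leaving out wild-type pup 2 or knockout pup 2 gave 0. Without wild-type pup 2, 7 members were higher and 2 lower in knockout ventricles, and 8 and 3 in wild-type ventricles, against E13.5. Without knockout pup 2 (added after seeing the data) the counts were 5 and 2 in knockout and 8 and 4 in wild-type ventricles. Without the library labelled E13.5 knockout replicate 1 they were 6 and 2 in knockout and 8 and 4 in wild-type ventricles. Leaving out each library in turn gave 3 to 7 higher and 2 to 3 lower in knockout ventricles, 8 to 10 and 2 to 4 in wild-type ventricles, 0 to 1 and 0 to 1 in knockout atria, 2 to 5 and 3 to 5 in wild-type atria, and, between chambers, 0 in each fit that left out a pup. Of the 27 stage calls, 9 were lost in at least 1 of these fits. At 3 or 4 animals a group and 5138352 reads in the shallowest library, differences of low genes such as Slc16a3, Pfkfb2 and Pdk2 were not well measured.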
